A study of Mus musculus with 4 samples.

Results

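Cux1, Cux2, Rorb, Mdga1 and Bhlhe22 are genes used to mark upper-layer and callosal neurons of the cerebral cortex, and their transcripts were followed in mouse cortex at embryonic day 15 (E15). The 5 genes were a set list found by symbol, and all 5 were present among the 13289 genes of the deposited count table. The series holds 4 RNA-seq libraries of polyadenylated RNA from fresh cerebral cortex, 2 from control embryos (titled WT) and 2 from Lhx2 cKO embryos. Lhx2 is a LIM-homeodomain transcription factor of cortical progenitors, and cKO is read as conditional knockout. The Cre driver, the floxed allele, the strain, the litters, the sex of the embryos and whether embryos were pooled are not given in the sources used here. Nothing says that the 2 libraries of a group came from separate embryos, so p-values measure only the spread between libraries.

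Cortical excitatory neurons are born in sequence from radial glia and intermediate progenitors, deep layers first and upper layers later. Many upper-layer neurons send axons through the corpus callosum to the other hemisphere. E15 in the mouse lies in the period when upper-layer neurons are being produced, so whole cortex at this age holds progenitors, young upper-layer neurons on their way to the cortical plate, and deep-layer neurons already in place. Cux1 and Cux2 are paralogous CUT-homeodomain transcription factors of upper-layer neurons that act on dendrite branching and synapses, and Cux2 is also transcribed in progenitors of the subventricular zone. Rorb is an orphan nuclear receptor known for layer 4. Mdga1 is a membrane-anchored immunoglobulin-superfamily protein of superficial-layer neurons that binds neuroligins. Bhlhe22, also known as Bhlhb5, is a basic helix-loop-helix repressor of postmitotic neurons that shapes cortical area identity.

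Total counts were 22294237 to 24609627 per library, and the 5 genes had 383 to 12202 counts in a library. The tissue label was checked against its markers: all 5 cortical excitatory neuron genes examined (Neurod2, Neurod6, Slc17a7, Emx1 and Tbr1) were present, with a summed level of 2153 to 2312 counts per 1000000 counts of the library (CPM) in control and 2052 CPM in each Lhx2 cKO library. Lhx2 itself had 316 and 287 CPM in control against 239 and 247 CPM in Lhx2 cKO, so the libraries labelled Lhx2 cKO still held 80.7% of the control level. Its call was lost in 3 of the 4 fits that left out 1 library, with an adjusted p of up to 0.176.

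Of the 5 genes, 3 passed the test between genotypes and they did not move together: Cux1 was lower in Lhx2 cKO, Rorb and Mdga1 were higher, and Cux2 and Bhlhe22 were not called. A gene is called here when its adjusted p-value in edgeR's quasi-likelihood test is under 0.05, with adjustment over all 13288 genes tested. Of all genes tested 20.8% were called, made up of 11.6% called higher and 9.17% called lower. The median log2 fold change was 0.05 over the 5 genes and 0.003 over all genes tested. All 5 genes passed the filter on low counts. In bulk tissue, fewer cells of a type and less RNA per cell cannot be told apart.

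**Figure D1:**
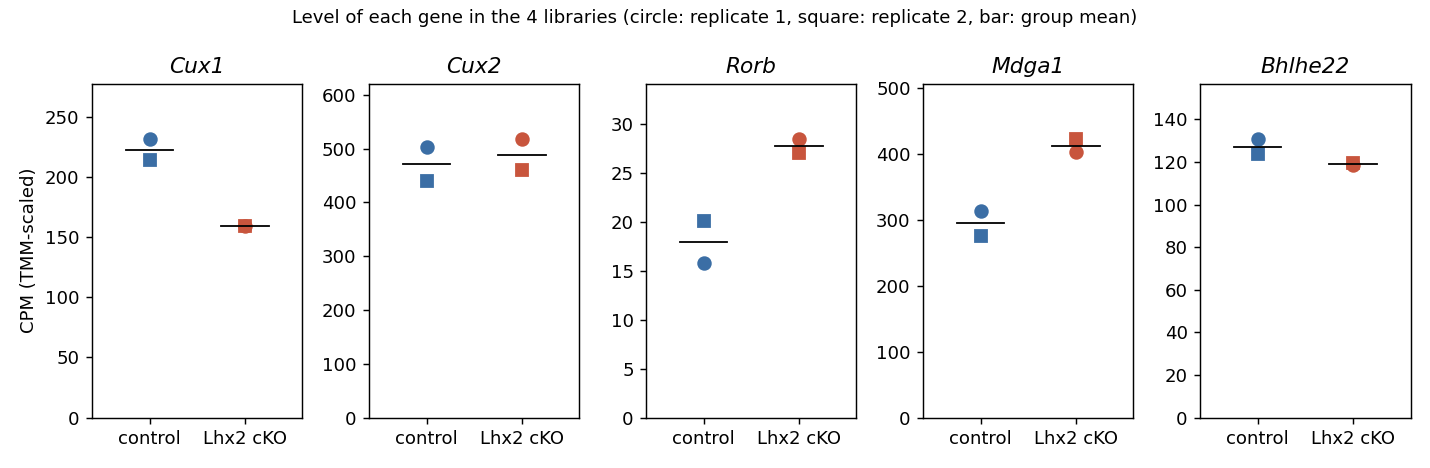
TMM-scaled CPM of the 5 genes in each library, 1 panel per gene with its own axis from 0; circles and squares are replicates 1 and 2 and bars are group means. The Lhx2 cKO libraries lay below both control libraries for Cux1 and Bhlhe22 and above both for Rorb and Mdga1. For Cux2 the groups overlapped.

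Cux1 (ENSMUSG00000029705.18, chromosome 5) had 231 CPM in control 1, 214 CPM in control 2 and 159 CPM in each of the Lhx2 cKO libraries. Both Lhx2 cKO libraries were low and nearly equal, and the groups did not overlap. The means were 223 ± 12.2 CPM in control and 159 ± 0.246 CPM in Lhx2 cKO (SD, n = 2). The log2 fold change was -0.48, with an SE of 0.095 and an adjusted p of 1.79e-04 in edgeR. The 95% interval of the fold ran from 0.626 to 0.817 of the control level, with an estimate of 0.715. Of all genes tested, 6.26% had a lower log2 fold change. Exons of Cux1 share 394 bases, 1.97% of its exonic length, with the antisense gene Gm16599 in GENCODE M21, and whether counting used strand is not given in the sources used here.

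Cux2 (ENSMUSG00000042589.19, also on chromosome 5) had 503 and 440 CPM in control and 517 and 459 CPM in Lhx2 cKO. In both groups replicate 1 was higher than replicate 2, and the groups overlapped. The means were 472 ± 44.8 and 488 ± 41 CPM (SD, n = 2). The log2 fold change was 0.05, with an SE of 0.105 and an adjusted p of 0.785 in edgeR. The 95% interval of the fold, 0.894 to 1.20, leaves room for a change of that size in either direction. The Cux1 estimate of 0.715 lay outside that interval.

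The difference between the paralogs was examined directly as the ratio of Cux1 to Cux2 within each library, which does not depend on the scaling between libraries. The log2 ratio of their CPM was -1.12 and -1.04 in the control group against -1.70 and -1.53 in the Lhx2 cKO group. It fell by 0.53 between the group means, against a pooled SD of 0.0937 between replicates, and the groups did not overlap. The exact two-sided permutation test gave p = 0.333, the smallest that 2 libraries against 2 allow, and 0.417 after Benjamini-Hochberg adjustment over the 10 pairs of genes.

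Rorb (ENSMUSG00000036192.16, chromosome 19) had 15.8 and 20 CPM in control, from 383 and 501 counts, and 28.4 and 26.9 CPM in Lhx2 cKO, from 646 and 619 counts. Every Lhx2 cKO value lay above every control value, and the control libraries differed from each other by a ratio of 1.27. The means were 17.9 ± 3.01 and 27.7 ± 1.02 CPM (SD, n = 2). On the log2 scale the difference was 0.63, with an SE of 0.131 and an adjusted p of 3.91e-04 in edgeR. The fold was 1.54 with a 95% interval of 1.28 to 1.85, and 6.96% of genes tested had a higher log2 fold change. Rorb was the only one of the 5 genes that the authors' deposited table marks as up, with a log2 fold change of 0.62 there. That table gives Cux1 a log2 fold change of -0.49 and Mdga1 one of 0.47, both with adjusted p-values under its Rorb value of 1.84e-04, but marks neither as changed.

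Mdga1 (ENSMUSG00000043557.17, chromosome 17) had 314 and 276 CPM in control and 403 and 423 CPM in Lhx2 cKO. The groups did not overlap. The means were 295 ± 26.7 and 413 ± 14 CPM (SD, n = 2). On the log2 scale the difference was 0.48, with an SE of 0.101 and an adjusted p of 3.82e-04 in edgeR. The fold was 1.40, with a 95% interval of 1.21 to 1.61.

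Bhlhe22 (ENSMUSG00000025128.8, chromosome 3) had 131 and 124 CPM in control and 118 and 120 CPM in Lhx2 cKO. The Lhx2 cKO libraries lay below both control libraries by a small margin. Groups stood apart without overlap for 4 of the 5 genes, and for 59.3% of all genes tested. The means were 127 ± 4.90 and 119 ± 0.831 CPM (SD, n = 2). On the log2 scale the difference was -0.10, with an SE of 0.094 and an adjusted p of 0.517 in edgeR. The 95% interval of the fold was 0.820 to 1.07.

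Calls of the 5 genes were the same under every scaling, filter and test tried with all libraries, and in each fit that left out 1 library. The weakest call among these was that of Rorb without control 1, with a log2 fold change of 0.45 and an adjusted p of 0.038. Without control 2 that of Rorb was 0.81. The sign of Cux2 was not fixed: it was negative without control 2 (-0.04) and without Lhx2 cKO 1 (-0.04).

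Per length of exon, Cux2 was the highest of the 5 genes in both groups. In control the order by RPKM (CPM per kilobase of merged exon) was Cux2 at 46.8 ± 4.44, Bhlhe22 at 38 ± 1.47, Mdga1 at 31 ± 2.80, Cux1 at 11.1 ± 0.608 and Rorb at 1.62 ± 0.271 (SD, n = 2). In Lhx2 cKO the order was Cux2 at 48.4 ± 4.07, Mdga1 at 43.4 ± 1.47, Bhlhe22 at 35.6 ± 0.249, Cux1 at 7.95 ± 0.0123 and Rorb at 2.50 ± 0.0924 RPKM. Mdga1 and Bhlhe22 changed places between the genotypes. Within each group the libraries of neighbouring genes in these orders did not overlap by RPKM, while by TPM those of Cux2 and Mdga1 overlapped in Lhx2 cKO. The RPKM of Cux1 divides by 20024 bases, the merged length of all its annotated exons.

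The ratios between the other pairs were compared in the same way. Of the 10 pairs, 8 had ratios that did not overlap between the genotypes, where 60.2% of all pairs of genes tested did so. The exact permutation p was 0.333 for each of the 8, the floor of the design, and 0.417 after adjustment, so this test could pass none of these differences. The log2 ratio of Cux1 to Rorb was 3.87 and 3.41 in control against 2.49 and 2.56 in Lhx2 cKO, a difference of -1.12 (pooled SD 0.230), the largest of the 10. The ratio of Cux1 to Mdga1 changed by -0.97 (pooled SD 0.0514), and that of Mdga1 to Bhlhe22 by 0.58 (pooled SD 0.0597). The pairs that overlapped were Rorb with Mdga1, whose ratio differed by 0.15 (pooled SD 0.274, exact permutation p = 1), and Cux2 with Bhlhe22, whose ratio also differed by 0.15 (pooled SD 0.109, exact permutation p = 0.667).

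**Figure D2:**
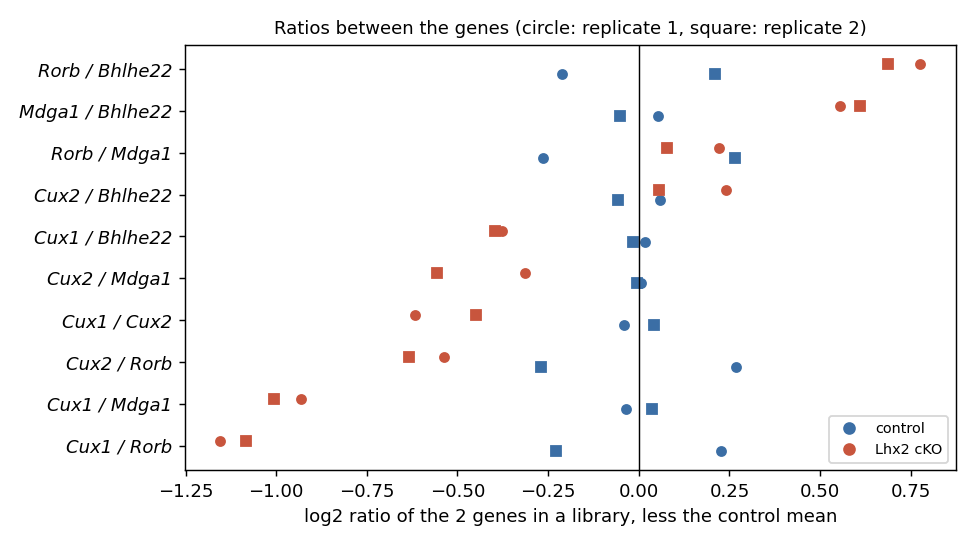
Log2 ratio of CPM of each pair of genes in each library, less the mean of the control libraries, with pairs ordered by the difference between genotypes; blue is control and red is Lhx2 cKO, circles replicate 1 and squares replicate 2. The ratio of Cux1 to Rorb lies farthest to the left at a mean of -1.12, and 8 of the 10 pairs show no overlap between colours.

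Upstream sequences are shown for the 3 called genes and for Cux2, so that the paralogs and the genes that moved in opposite directions can be read side by side. They are the 250 bases before a RefSeq start site on the GRCm38.p6 build, on the strand of the gene, while the counts were made on mm39 per the submitters' processing notes. RefSeq windows were found for 4 of the 5 genes, 6 windows in all, with 2 start sites each for Cux2 and Rorb; the deposited gene counts do not separate start sites. Capitals mark TAAT or its reverse complement ATTA, the core that many homeodomain proteins recognise, and ATCGAT, a sequence bound by Cux1. All windows shown lie on the minus strand.
Cux1, chr5:136565982-136566231: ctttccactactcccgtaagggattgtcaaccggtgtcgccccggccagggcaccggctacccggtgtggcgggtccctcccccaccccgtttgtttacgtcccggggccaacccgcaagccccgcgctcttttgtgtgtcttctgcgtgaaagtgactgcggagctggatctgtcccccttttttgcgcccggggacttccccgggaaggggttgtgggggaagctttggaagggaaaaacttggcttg
Cux2, first start, chr5:122049852-122050101: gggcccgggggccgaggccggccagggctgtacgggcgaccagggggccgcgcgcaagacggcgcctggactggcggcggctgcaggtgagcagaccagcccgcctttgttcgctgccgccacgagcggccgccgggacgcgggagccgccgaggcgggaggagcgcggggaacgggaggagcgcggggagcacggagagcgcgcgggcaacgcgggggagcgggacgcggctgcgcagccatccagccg
Cux2, second start, chr5:122047826-122048075: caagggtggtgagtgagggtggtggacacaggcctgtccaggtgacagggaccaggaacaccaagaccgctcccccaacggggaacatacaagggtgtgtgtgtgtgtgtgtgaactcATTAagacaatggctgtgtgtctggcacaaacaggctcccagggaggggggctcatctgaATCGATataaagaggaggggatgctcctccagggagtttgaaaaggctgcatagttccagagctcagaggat
Rorb, first start, chr19:19111197-19111446: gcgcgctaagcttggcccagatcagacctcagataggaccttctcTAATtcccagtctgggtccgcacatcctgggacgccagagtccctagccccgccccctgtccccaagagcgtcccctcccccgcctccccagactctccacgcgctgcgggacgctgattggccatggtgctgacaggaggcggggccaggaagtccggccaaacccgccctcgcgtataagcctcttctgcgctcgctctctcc
Mdga1, chr17:29887883-29888132: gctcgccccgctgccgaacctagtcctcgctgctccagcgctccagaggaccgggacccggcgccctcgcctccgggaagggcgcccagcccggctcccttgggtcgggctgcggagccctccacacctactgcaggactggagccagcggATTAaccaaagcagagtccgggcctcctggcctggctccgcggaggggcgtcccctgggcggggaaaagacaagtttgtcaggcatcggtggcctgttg

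Both strands were searched. The window of Cux1 and the first window of Cux2 held none of the motifs. The second window of Cux2 held ATCGAT, beginning 72 bases before the start, a match present in 0.728% of the 32851 windows of this length, and 1 TAAT core. The first window of Rorb and the window of Mdga1 each held 1 TAAT core, beginning 205 and 99 bases before the start, where 54.9% of all windows hold at least 1. The second window of Rorb held 4 TAAT cores, some of them overlapping. The 6-letter TAATTA, which contains 2 overlapping cores and is found in 4.84% of windows, and AGGTCA, the half-site of ROR receptors, found in 14% of windows, were in none of the 6. A match describes letters and no match says only that these letters are not in this window. The windows also differed in composition, from 80% G and C with 40 CpG dinucleotides in the first window of Cux2 to 39.2% with 4 in the second window of Rorb, where the median over all windows was 52.4% with 6.

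The relatives and partners of the 5 genes were then read from the same fit. Of the other CUT-domain genes examined, 2 were tested. Satb1, a chromatin organiser, fell from a mean of 119 ± 1.46 CPM to 81.1 ± 0.180 CPM (SD, n = 2). Its log2 fold change of -0.55 (adjusted p 2.55e-05 in edgeR) was close in size to that of Cux1. Onecut2 was at -0.01 (adjusted p 0.975). Rora, the ROR paralog of Rorb, was scarce, with 2.02 and 2.52 CPM in control against 5.27 and 2.96 CPM in Lhx2 cKO. Its log2 fold change of 0.86 passed narrowly (adjusted p 0.0479 in edgeR). The call was lost in 4 of the 8 alternatives with all libraries, DESeq2 among them (adjusted p 0.12), and in 3 of the 4 fits without 1 library: without control 1 (0.69, adjusted p 0.241), without control 2 (1.02, adjusted p 0.0544) and without Lhx2 cKO 1 (0.38, adjusted p 0.593).

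The Mdga1 paralog and 2 of the neuroligins, the synaptic adhesion proteins that MDGA proteins bind, were also called higher. Of this group of 4 genes, 3 were called higher and 0 lower, where 11.6% of all genes tested were called higher. Mdga2 rose by 0.52 on the log2 scale (adjusted p 3.80e-04 in edgeR), with a mean of 39.1 ± 4.62 CPM in control and 56 ± 6.86 CPM in Lhx2 cKO (SD, n = 2). Nlgn1 had 47.5 and 55.5 CPM in control against 76.1 and 87.9 CPM in Lhx2 cKO, a log2 fold change of 0.67 (adjusted p 3.98e-06). Nlgn3 had a log2 fold change of 0.61 (adjusted p 1.68e-05), but 41.2% of its exonic length is shared with Gm21986 on the same strand, so its counts are uncertain. Nlgn2, the most counted of the neuroligins, had 732 and 647 CPM in control against 649 and 703 CPM in Lhx2 cKO, with a log2 fold change of -0.03 (95% interval -0.25 to 0.19, adjusted p 0.886). For the relatives of Bhlhe22, Olig1 and Olig2, basic helix-loop-helix factors of the oligodendrocyte lineage, rose by 1.26 and 1.28 on the log2 scale from 5.95 and 3.79 CPM. Prdm8, which forms a repressor complex with Bhlhe22, was at 0.10 (adjusted p 0.478) and Cdh11, a cadherin gene repressed by that complex, was at 0.16 (adjusted p 0.308). Exons of Prdm8 share 29.1% of their length with an antisense gene.

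**Figure D3:**
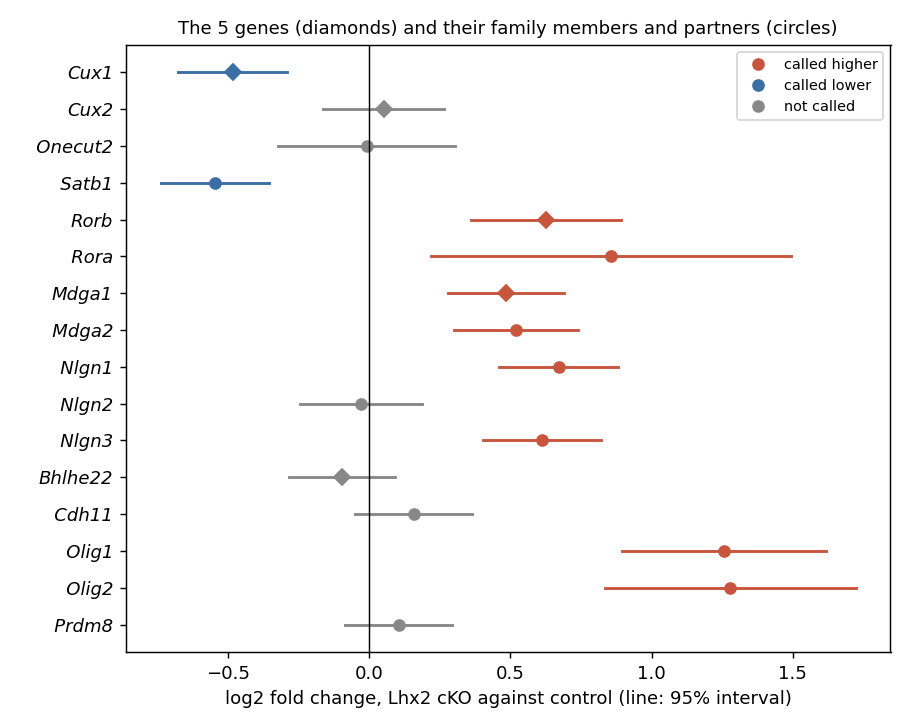
Log2 fold change of the 5 genes (diamonds) and of their family members and partners (circles, listed under the gene they belong to), with 95% intervals from the edgeR fit; red is called higher, blue called lower and grey not called. Cux1 and Satb1 lie to the left of 0, and Mdga1, Mdga2, Nlgn1 and Nlgn3 to the right, with Nlgn2 at -0.03.

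Other upper-layer and callosal genes were called in both directions. Of the 15 examined, all were tested, 6 were called higher, 6 lower and 3 were not called, with a median log2 fold change of 0.05. Over all genes tested, 11.6% were called higher and 9.17% lower. The list was drawn up with earlier results of these data known, so its counts are a description. The POU-domain factors that act early in upper-layer neurons were on the lower side: Pou3f1 was at -0.69 (adjusted p 1.13e-06 in edgeR) and Pou3f2 at -0.55 (adjusted p 2.61e-05), while Pou3f3 at -0.29 did not pass (adjusted p 0.0504). Inhba, which encodes an activin subunit, had the largest fall of the 15, -1.39 on the log2 scale, with a mean of 32.4 ± 1.27 CPM in control and 12.4 ± 1.28 CPM in Lhx2 cKO (SD, n = 2). Limch1 was at -0.81, Nectin3, an adhesion gene, at -0.45, and the netrin receptor Unc5d at -0.35. Pou3f2 and Rorb, which are known to repress each other in cortical neurons, had opposite signs here. Pou3f2 had 227 and 208 CPM in control against 147 and 151 CPM in Lhx2 cKO. Any action of either gene on the other was not tested.

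On the higher side, Dkk3, a secreted Dickkopf-family protein, rose by 1.61 on the log2 scale (adjusted p 6.07e-15 in edgeR), with a mean of 24.9 ± 2.68 CPM in control and 75.8 ± 9.26 CPM in Lhx2 cKO (SD, n = 2). Cdh13 was at 0.54 and Mef2c, an activity-related transcription factor, at 0.41. The semaphorin receptors Plxna4 and Plxnd1 were at 0.38 and 0.34, and Kitl at 0.35. Kitl lost its call in DESeq2 (adjusted p 0.107), without control 1 (log2 fold change 0.16) and without Lhx2 cKO 2 (0.25, adjusted p 0.254). Calls were also lost when 1 library was left out for Nectin3 and Plxna4 (control 2), Unc5d (Lhx2 cKO 1) and Plxnd1 (control 1 or Lhx2 cKO 1), and Nectin3 was then at -0.27. The other 7 kept their calls in all 4 such fits. Ski, Lmo4 and Pou3f3 were not called.

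**Figure D4:**
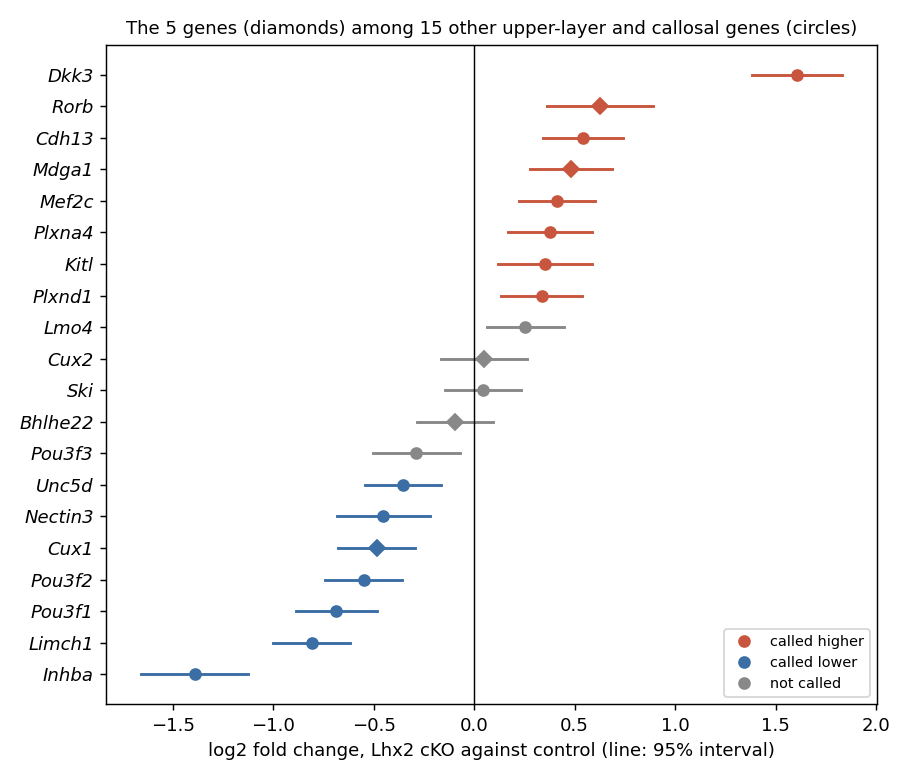
Log2 fold change with 95% intervals of the 5 genes (diamonds) and 15 other upper-layer and callosal genes (circles), ordered from highest to lowest; red is called higher, blue called lower and grey not called. Dkk3 stands at the top with 1.61 and Inhba at the bottom with -1.39, and the 5 genes lie between 0.63 and -0.48.

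Of the layer 4 genes examined beside Rorb, 6 were tested, with 2 called higher, 1 lower and a median of 0.33. The shares over all genes tested were 11.6% called higher and 9.17% called lower. Btbd3, which orients dendrites of layer 4 neurons, was at 0.44 (adjusted p 0.0371 in edgeR), a call lost in DESeq2 (adjusted p 0.0917), with library totals alone and in all 4 fits without 1 library. Kcnh5, a potassium channel gene, was at -1.03 (adjusted p 0.0112 in edgeR), a call lost without control 2 and without Lhx2 cKO 1 (adjusted p up to 0.107). Rora is given above. The 3 calls of the layer 4 genes became 1 in DESeq2 and without control 1, and 0 without control 2 or Lhx2 cKO 1. Of the thalamic markers, where Rorb is also transcribed, Gbx2 was not analysed here and the other 6 summed to 105 to 114 CPM in control and 98.7 to 99.9 CPM in Lhx2 cKO, with Rora the only one called. Their part in the Rorb result was not tested.

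For deep-layer and subplate genes 13 were tested, with 3 called higher, 2 lower and a median log2 fold change of 0.08. Among all genes tested, 11.6% were called higher and 9.17% lower. Those named by smallest p were Lpar1, a lysophosphatidic acid receptor gene active in subplate, at -3.72, Ldb2 at 1.10, Hs3st4 at 0.56 and Foxp2 at -0.34. The call of Foxp2 was lost in 3 of the 4 fits without 1 library (adjusted p up to 0.109), the 5 calls became 3 without control 1, and the median was -0.052 without Lhx2 cKO 2 and -0.020 with genes of a mean count of at least 50. Of 10 intermediate progenitor genes 6 were called lower, 0 higher and 4 were not called, and their summed level went from 997 to 1001 CPM in control to 652 to 695 CPM in Lhx2 cKO. Eomes, the T-box factor that defines these cells, was at -1.66. Of 9 radial glia genes 3 were called lower, 1 higher and 5 were not called, with overlapping summed levels of 745 to 801 CPM in control and 729 to 751 CPM in Lhx2 cKO. These 4 calls became 2 without control 1 or without Lhx2 cKO 2, and the higher one, Slc1a3, was also lost in DESeq2 and with library totals alone.

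The log2 CPM of each of the 5 genes was set against the mean log2 CPM of 4 marker lists in the same library. Each value is the gene's own difference between genotypes less that of the list. It therefore cannot tell whether a gene moved with the cells that carry it. The pan neuron mean itself differed by 0.20 between genotypes and the cortical excitatory neuron mean by -0.38. The intermediate progenitor mean differed by -0.58 and the deep-layer mean by -0.14. Calls over all genes tested were 11.6% higher and 9.17% lower. Of the 11 pan neuron genes 4 were called higher, 1 lower and 6 were not called, with a median log2 fold change of 0.08. Of the 5 excitatory neuron genes 2 were called lower and 3 were not called, with a median of -0.12 and Emx1 at -1.54. The deep-layer mean includes Lpar1 at -3.72, while the median log2 fold change of that list was 0.08. Rorb and Mdga1 were higher in Lhx2 cKO relative to all 4 lists: Rorb by 0.43 against pan neuron genes and 1.01 against excitatory neuron genes, and Mdga1 by 0.28 and 0.86. Against pan neuron genes Rorb was at 0.27 without control 1 and Mdga1 at 0.18 without control 2. Cux1 differed by -0.68 against pan neuron genes (pooled SD 0.0657), by -0.11 against excitatory neuron genes and by -0.34 against deep-layer genes. Against intermediate progenitor genes, whose mean was lower, Cux1 differed by 0.10, with 0.041 without control 2 and 0.16 without control 1. Cux2 differed by -0.15 against pan neuron genes, with overlapping libraries, and by 0.63 against intermediate progenitor genes. Libraries stood apart in 19 of the 20 comparisons, where 76.7% of such comparisons over all genes did so: 70.2% of genes against the pan neuron mean, 82% against the excitatory neuron mean, 91.2% against the intermediate progenitor mean and 63.6% against the deep-layer mean. The exact permutation test gave p = 0.333 for the 19, the smallest possible, and 0.351 after adjustment over the 20. As an alternative, the median log2 CPM of the markers in each library was taken in place of the mean. It follows the markers of middle level and is not the median change of a list. Rorb and Mdga1 then had positive differences against all 4 lists. Against deep-layer genes, however, that of Mdga1 went from 0.63 (pooled SD 0.097) to 0.035 and that of Rorb from 0.78 to 0.18. Cux1 was lower against all 4, while Cux2 and Bhlhe22 changed sign against pan neuron, excitatory neuron and deep-layer genes.

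Markers of other cells in the tissue also moved between the genotypes. Their counts of calls stand beside shares of 11.6% called higher and 9.17% called lower over all genes tested. Interneuron genes, of which 4 of 9 tested were called higher and 0 lower, summed to 257 to 286 CPM in control and 380 to 384 CPM in Lhx2 cKO, with Npy at 1.25 and Sst at 1.07 on the log2 scale; Nkx2-1 was not analysed here. Cajal-Retzius genes, 4 of 6 higher, summed to 295 to 326 and 447 to 570 CPM; the call of Trp73 (adjusted p 0.048 in edgeR) was lost in 5 of the 8 alternatives with all libraries and in all 4 fits without 1 library, which left 3. Microglia genes, 7 of 8 higher, summed to 114 CPM in each control library and 230 to 254 CPM in Lhx2 cKO. Vascular genes, 4 of 6 higher and 1 lower, summed to 172 to 194 CPM in control and 217 to 247 CPM in Lhx2 cKO. The lower gene was Col1a1, at -3.00 on the log2 scale. It had 25.7 and 23 CPM in control against 4.44 and 1.65 CPM in Lhx2 cKO. Red blood cell genes, 1 of 6 higher and 5 lower, summed to 2338 to 3171 CPM in control and 1899 to 2128 CPM in Lhx2 cKO. Without control 1 the 6 calls of the red blood cell genes became 2 and their median went from -0.43 to -0.18, and the 5 calls of the vascular genes became 3 and their median went from 0.50 to 0.23. No gene of these lists was at 0 in a library. Their part in the values of the 5 genes was not tested.

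The genes whose profile over the 4 libraries was nearest to each of the 5 were found among the 10966 genes that averaged 5 CPM or more, by Euclidean distance between log2 CPM profiles centred on their own means. With 4 libraries such likeness is a description only. Nearest to Cux1 were Rpl26, a ribosomal protein gene (distance 0.023), and Fam193a (0.025). Nearest to Cux2 were Setd6 and Fam162a, to Rorb Rapgef5, a Rap exchange factor gene, and Gpr22, to Mdga1 Fndc10 and Mipep, and to Bhlhe22 Ddx19b and Plekhh3. None of the 5 genes was among the 2 nearest of another.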

How the data were processed

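Gene counts of 4 libraries (2 control, 2 Lhx2 cKO) were used as deposited: raw counts per gene, with groups and replicate numbers taken from the titles. Trim Galore, Subread, featureCounts, edgeR and the build mm39 are named in the submitters' processing notes, and the annotation and the use of strand are not given in the sources used here. The deposited table also carries the authors' log2 fold change and log2 CPM, their p-value and adjusted p-value, the -log10 of the latter (per the file headers), and a gene length in bases that equals the merged exons of GENCODE M21 for the 5 genes.

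Counts were tested with edgeR 4.0.16 in R 4.3.3 (TMM, filterByExpr with a minimum of 10 counts, quasi-likelihood test, no covariates, two-sided, Benjamini-Hochberg over 13288 genes; 1 gene was filtered out). CPM and RPKM are TMM-scaled. Standard errors are the absolute log2 fold change over the square root of F. Ratios between genes add 0.5 counts and use exact permutation tests. The test was checked on simulated data. Replicates were not copies of one library, since chi-square over its degrees of freedom was 13.9 between the controls and 14.3 between the Lhx2 cKO libraries, and 3 counts correspond to 0.12 to 0.132 CPM. The genes and lists were chosen with earlier results of these data known. Named were Lhx2, the 5 genes, all genes of their family lists and of the upper-layer list, up to 4 called genes of other lists by smallest p, and the 2 nearest profiles of each gene. A few genes of the lists are not reported here, and the lists were summarised without them. The motif TAAT was added after the sequences were seen. Alternatives were other scalings, filters, DESeq2 1.42.0, limma-voom (limma 3.58.1), a replicate block, a stricter threshold, leaving out each library, TPM, a pseudocount of 1 CPM and the median of markers.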

Additional observations from a re-analysis of the deposited data

How the results depend on the processing

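With all 4 libraries, none of the 5 genes changed its sign or its call under the 8 alternatives of scaling, filter, test and block: log2 fold changes ranged from -0.49 to -0.48 for Cux1, from 0.04 to 0.06 for Cux2, from 0.61 to 0.63 for Rorb, from 0.47 to 0.49 for Mdga1 and from -0.11 to -0.09 for Bhlhe22, and scaling moved the median of all genes by at most 0.0104 in size. Leaving out one library, where the lone library of a group is assumed to vary like the other group, gave ranges of -0.54 to -0.44 for Cux1, 0.45 to 0.81 for Rorb, 0.39 to 0.57 for Mdga1, -0.14 to -0.07 for Bhlhe22 and -0.04 to 0.14 for Cux2, whose negative values came without control 2 (-0.043) and without Lhx2 cKO 1 (-0.038). The 2758 calls over all genes became 1633 (without Lhx2 cKO 2) to 2396 when one library was left out and 1697 at an adjusted p under 0.01; all 3 members called stayed called at that threshold. The median of the upper-layer and callosal list ranged from 0.017 to 0.072 without one library.

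Values set against marker lists depended on how the list was summarised. The mean includes large single changes, such as Lpar1 at -3.72 among deep-layer genes and Emx1 at -1.54 among excitatory neuron genes. The median is that of the marker levels in each library, so it follows the markers of middle level. The part of each in the differences was not tested. With the median of markers, Cux1, Cux2, Rorb, Mdga1 and Bhlhe22 differed by -0.29, 0.24, 0.83, 0.68 and 0.094 against pan neuron genes, by -0.56, -0.029, 0.56, 0.41 and -0.18 against excitatory neuron genes, by -0.20, 0.33, 0.92, 0.77 and 0.19 against intermediate progenitor genes and by -0.93, -0.40, 0.18, 0.035 and -0.55 against deep-layer genes. With a pseudocount of 1 CPM the values against intermediate progenitor genes were 0.029 for Cux1 and 0.41 for Bhlhe22. Without one library the values against pan neuron genes ranged from 0.27 to 0.60 for Rorb and from 0.18 to 0.39 for Mdga1.

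The labels do not say whether libraries of equal number belong together across the groups. Differences between replicates 1 and 2 in control and in Lhx2 cKO had a correlation of -0.00515 across genes. A correlation over all genes cannot exclude a shared litter or batch. The replicate block gave 2874 calls over all genes, log2 fold changes of -0.48 for Cux1, 0.05 for Cux2, 0.63 for Rorb, 0.49 for Mdga1 and -0.10 for Bhlhe22, and 14 in place of 12 calls in the upper-layer and callosal list. Depth did not limit the 5 genes, whose counts were at least 383, while 2 libraries per group limit every exact test to a p of 0.333.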
